A study of Mus musculus with 11 samples.

Results

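Collagens, laminins and latent TGF-beta binding proteins build the extracellular matrix around cells. They were taken here as every gene whose symbol is Col, a number, a and a number, or Lama, Lamb or Lamc with a number, or Ltbp1 to Ltbp4. The rule found 59 genes among the 32285 genes of the count table. These were 44 collagen genes, 11 laminin genes and 4 latent TGF-beta binding protein genes. Of the 59, 47 passed the filter on low counts and were tested, as were 15093 genes in all. The other 12 genes, among them Col4a4, Col11a1, Col17a1, Lama1 and Lamc3, had 0 to 16 reads in any library, and Col9a1 had 0 in every one.

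RNA was sequenced from pancreatic islets of 16-week-old mice fed a high-fat diet for 4 weeks. The islets came from mice with a β-cell deletion of Zzef1, labelled βZKO_Mip, or from littermate controls, and were exposed to 10 µM azoramide, or to the vehicle DMSO, for 24 h. Each library pooled islets of at least 3 mice of a genotype. The 11 libraries were 3 of control islets with DMSO and 3 with azoramide, and, of knockout-labelled islets, 2 with DMSO and 3 with azoramide. The floxed allele, the Cre line and whether control mice carried either are not stated in the labels. The labels speak of biological replicates without naming the animals, so the p-values measure the spread between these libraries only. Azoramide was described as a compound that raises the folding capacity of the endoplasmic reticulum.

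Islet β-cells make little basement membrane of their own, and the capillary endothelium inside the islet is known to lay down collagen IV and laminin against them. Collagen chains fold in the endoplasmic reticulum into triple helices, whose strands need glycine at regular steps, and are exported by large carriers. Laminins are cross-shaped trimers of an α, a β and a γ chain that bind integrins and dystroglycan. Latent TGF-beta binding proteins tether inactive TGF-beta, or other growth factors, to fibrillin microfibrils outside the cell.

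Depth was even, at 16832800 to 19501813 counts and 17687 to 17999 detected genes per library. Summed β-cell markers lay between 130300 and 193100 counts scaled to library size (CPM) and summed α-cell markers between 14730 and 28090 CPM, so the endocrine markers of islets were abundant. Zzef1 itself averaged 97.2 ± 12.2 CPM with DMSO and 66.6 ± 2.02 with azoramide in control islets (n = 3 each), and 81.5 ± 2.93 (n = 2) and 72.8 ± 4.53 (n = 3) in knockout-labelled islets (SD). It was not called between genotypes by edgeR with DMSO (-0.26 ± 0.09, adjusted p = 0.999) or with azoramide (0.13 ± 0.08, adjusted p = 0.968), so any direction between genotypes rests on the labels. Library 2 of control DMSO and library 3 of knockout-labelled azoramide stood apart from their groups: chi-square per degree of freedom between them and the other libraries of their group ran from 15.5 to 25.2, against 6.54 and 7.08 between those others. Control azoramide library 2 also differed more from the other libraries of its group (15.2 and 10.1) than those did from each other (5.69). Without it 17 members were called in control islets and 17 in knockout-labelled islets. Of 15026 genes tested then, 2582 were lower and 2621 higher in control islets, and 2931 and 2923 in knockout-labelled islets. Without control DMSO library 2 and knockout-labelled azoramide library 3, 20 members were called in control islets and 18 in knockout-labelled islets. With all libraries these counts were 18 and 17. Without those 2 libraries 21.9% of all genes were lower and 21.2% higher in control islets, and 22.9% and 23.4% in knockout-labelled islets. Leaving out either knockout-labelled DMSO library leaves 1 in that group, which is then assumed to vary like the other groups, so a call lost that way is no measure of that library alone.

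Many matrix genes were lower with azoramide than with DMSO in both genotypes. In control islets 17 of the 47 tested members were lower and 1 was higher than with DMSO, and 29 did not pass the test. In knockout-labelled islets 16 were lower, 1 was higher and 30 did not pass. Called lower in both were 13 genes: Col4a1, Col4a2, Col6a6, Col14a1, Col15a1, Col27a1, Lama4, Lama5, Lamb1, Lamc1, Ltbp2, Ltbp3 and Ltbp4. The threshold was an adjusted p of 0.05 in edgeR's quasi-likelihood test, with Benjamini-Hochberg adjustment over all genes tested. Of all 15093 genes, 19.8% were called lower and 19.3% higher in control islets, and 19.8% lower and 20.0% higher in knockout-labelled islets. These shares take each genotype alone. The share of all genes called lower in both is not given here, so the 13 genes are not set against one. The members' median log2 fold change was -0.53 in control islets and -0.41 in knockout-labelled islets, against -0.02 and -0.003 over all genes. An unadjusted edgeR p under 0.05 was reached by 21 of the 47 members in control islets and 20 in knockout-labelled islets. Of all 15093 genes 6992 and 7139 reached it, a slightly larger share than among the members.

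**Figure D1:**
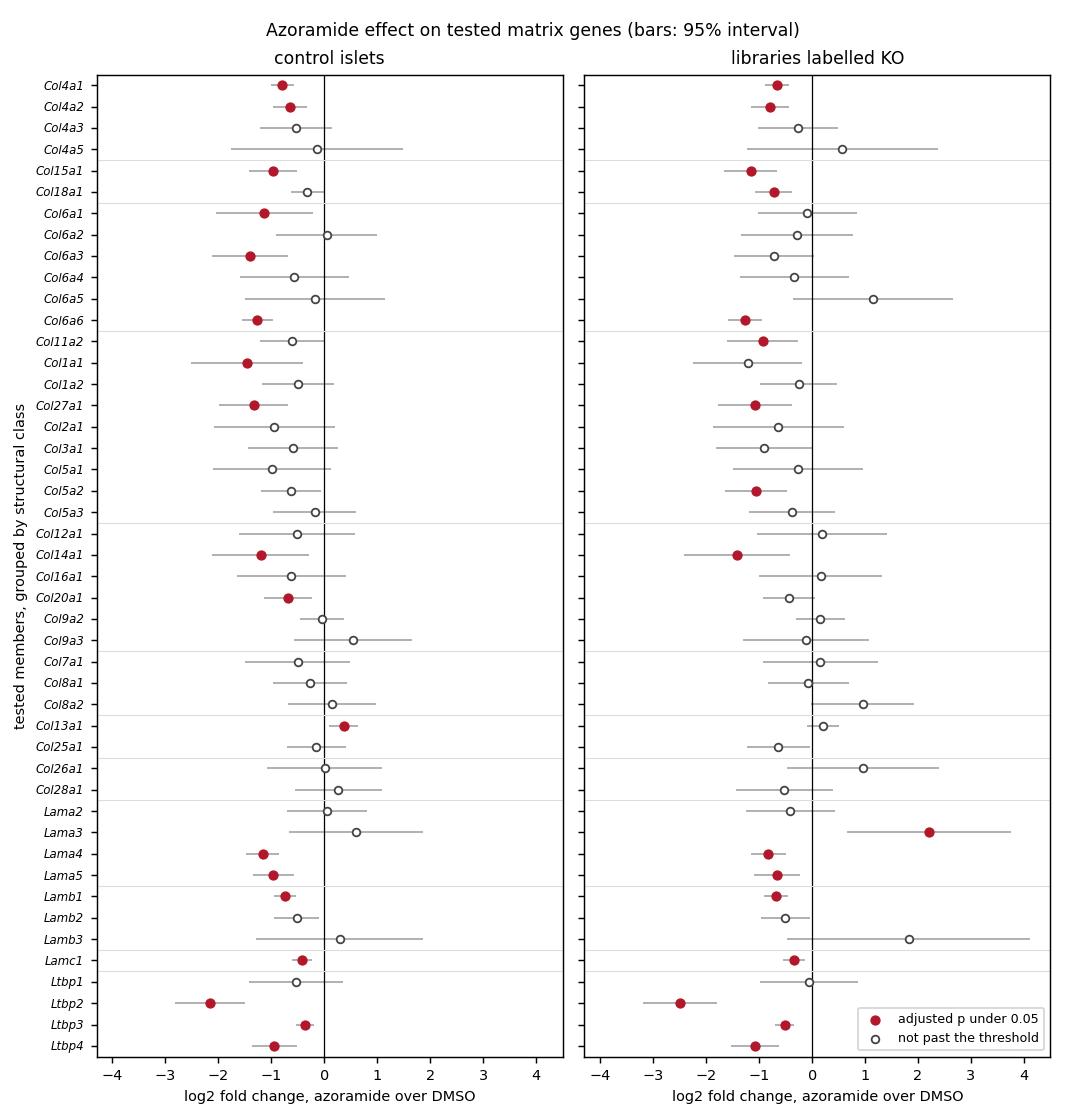
Log2 fold change of azoramide over DMSO for the tested members reported here, in control islets (left) and knockout-labelled islets (right), with 95% intervals as bars. Filled points passed an adjusted p of 0.05 in edgeR, and 13 genes were filled and below 0 in both panels.

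Both treatments' libraries can also be compared directly. For 15 of the 47 tested members each of the 6 azoramide libraries lay below each of the 5 DMSO libraries in CPM, and for 0 members did all lie above. Over all genes tested, 17.2% lay wholly below and 17.5% wholly above. In whole islets a lower level can mean fewer cells of a type or less RNA per cell, and these cannot be told apart. Both comparisons use separate DMSO libraries. In both, 37 of 47 members had the same sign, and among all genes 12564 of 15093 did, a somewhat larger share. Calls were fewer among weakly expressed members. Of the 17 members with a mean of at least 100 counts, 11 were lower in control islets, 12 in knockout-labelled islets and 11 in both. Of the 30 members under 100 counts, 6 were lower in control islets, 4 in knockout-labelled islets and 2 in both. Over all genes, 4.92% of those under 100 counts and 25.9% of the others were called lower in control islets, and 5.37% and 25.8% in knockout-labelled islets.

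Exon length moved with the azoramide effect across all genes, and the members are long. In control islets the median log2 fold change fell over length quartiles from 0.24 (168 to 2618 bp) through 0.04 and -0.10 to -0.19 (6646 to 123200 bp). The share called lower rose over the same quartiles from 3.13% through 13.4% and 25.3% to 37.3%. In knockout-labelled islets it rose from 4.32% through 15.9% and 25.5% to 33.6%. Of the 47 tested members, 34 lay in the longest quartile, where 11 were lower in control islets and 13 in knockout-labelled islets. Those shares were near the 37.3% and 33.6% of all genes of that length. The members' median there was -0.54 and -0.40, against -0.19 and -0.15 for all genes of that length. The third quartile (4272 to 6645 bp) held 11 members, of which 6 were lower in control islets and 3 in knockout-labelled islets. Of all genes in that quartile 25.3% and 25.5% were lower. Members had medians of -0.65 and -0.51 in it, against -0.10 and -0.09 for all genes. With exonic length and GC content entered as an offset (length/GC offset), 7 members stayed lower and 2 were higher in control islets, and 6 were lower and 4 higher in knockout-labelled islets. Over all genes the offset gave 9.08% lower and 14.0% higher in control islets, and 10.5% and 14.0% in knockout-labelled islets, so the members' share of lower calls in knockout-labelled islets was then near that of all genes. Col6a6, Col15a1, Lama4, Lamb1 and Ltbp2 were the 5 called lower in both genotypes with and without the offset. Whether the length trend lies in the cells or the libraries was not tested.

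**Figure D2:**
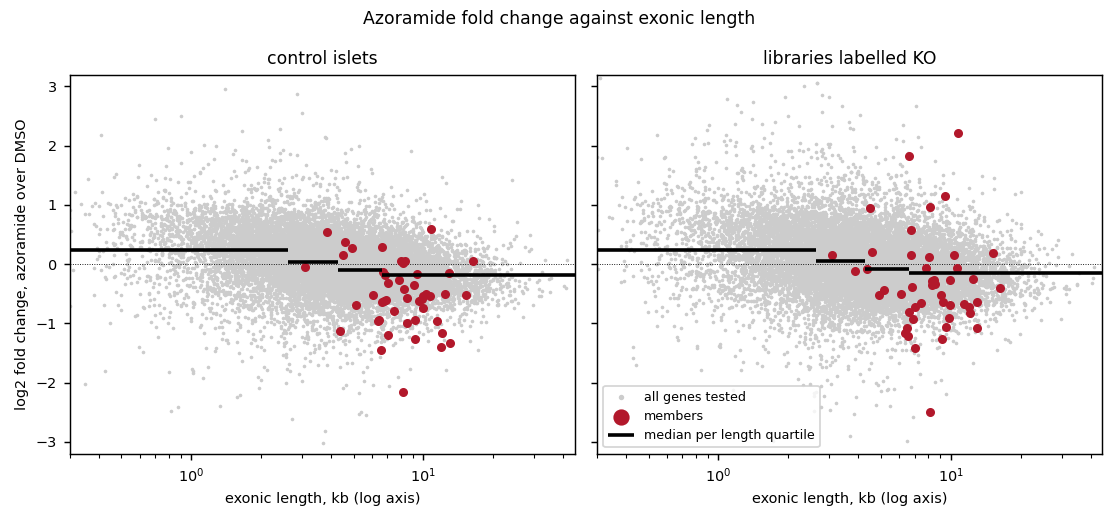
Log2 fold change of azoramide over DMSO against exonic length (log axis) in control islets and knockout-labelled islets, with all genes tested in grey and tested members in red. Black lines mark the median of each length quartile, 0.24 in the shortest and -0.19 in the longest for control islets, and most members lie under the line of the longest quartile.

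Basement membrane collagen IV genes had the highest levels per exon length of all members. Col4a1 and Col4a2 encode the chains of the α1α1α2 trimer found in nearly every basement membrane, and are divergently arranged on chromosome 8 with first exons that share 22 bp. Col4a1 lies on the minus strand at chr8:11198423-11312826 and Col4a2 on the plus strand at chr8:11312805-11449287 (GRCm38). The shared bases are shown because both genes' start regions lie there, on the Col4a2 strand, with a GC box (GGGCGG) in capitals:
Col4a1 and Col4a2 shared first-exon bases, chr8:11312805-11312826: agtgcgcGGGCGGcgtctccaa
Col4a1 was at 116, 102 and 112 CPM in the control DMSO libraries, 69.4, 69.3 and 51.6 CPM in the control azoramide libraries, 107 and 106 CPM in the knockout-labelled DMSO libraries and 62.3, 69.4 and 70.7 CPM in the knockout-labelled azoramide libraries. Col4a2 was at 100, 83.1 and 94.9 CPM with DMSO and 64.7, 65.5 and 47.2 CPM with azoramide in control islets, and 99.5 and 100.3 CPM with DMSO and 47.2, 59 and 65.8 CPM with azoramide in knockout-labelled islets. Every azoramide library of both genes lay below every DMSO library, and the chains fell together. The log2 fold change of Col4a1 was -0.79 ± 0.10 (SE) in control islets (edgeR adjusted p = 2.74e-05) and -0.66 ± 0.11 in knockout-labelled islets (adjusted p = 0.000262), and that of Col4a2 -0.65 ± 0.15 (SE) in control islets (edgeR adjusted p = 0.00601) and -0.80 ± 0.16 in knockout-labelled islets (adjusted p = 0.003). With the length/GC offset, Col4a1 stayed lower in control islets but not in knockout-labelled islets (-0.21), and Col4a2 was called in neither (-0.21 and -0.29). The tissue-restricted chains of kidney, lung and eye were rare: Col4a3 had 19 to 48 reads and Col4a5 2 to 12 reads per library and passed no test, and Col4a4 and Col4a6 were not tested.

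The glycine repeat is the part of a collagen that its modifying enzymes act on. It is shown for Col4a1, the collagen with the highest level per exon length, and for Col6a6, called in every alternative tried, as the first 90 bases of each longest unbroken run of Gly-X-Y codons, with glycine codons in capitals:
Col4a1 coding run: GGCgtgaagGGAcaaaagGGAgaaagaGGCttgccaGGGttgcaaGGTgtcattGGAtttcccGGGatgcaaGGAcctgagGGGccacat
Col6a6 coding run: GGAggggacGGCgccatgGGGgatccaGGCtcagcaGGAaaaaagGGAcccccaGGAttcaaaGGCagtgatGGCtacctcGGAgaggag
In Col4a1 the longest run held 40 triplets and runs of 5 or more covered 79.6% of codons. Col6a6 had a longest run of 42 triplets and 14.3% of codons in runs, most of its chain being globular. By comparison Col1a1 had an unbroken run of 338 triplets and Col27a1 of 217, while the laminin and Ltbp genes had 0% of codons in runs. These values come from the longest open reading frame among each gene's GENCODE M21 transcripts.

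Of the multiplexin collagens, the proteoglycan-like Col15a1 and Col18a1 of vascular basement membranes, Col15a1 was lower in both genotypes and Col18a1 in knockout-labelled islets. Col15a1 was at 9.18, 16.1 and 12.9 CPM with DMSO and 6.46, 8.24 and 4.89 CPM with azoramide in control islets, and 14.5 and 13.6 CPM with DMSO and 5.58, 7.62 and 5.64 CPM with azoramide in knockout-labelled islets. It fell in both genotypes, with log2 fold changes of -0.97 ± 0.21 (SE) in control islets (edgeR adjusted p = 0.00226) and -1.16 ± 0.23 in knockout-labelled islets (adjusted p = 0.00104). Col18a1, whose C-terminal fragment is endostatin, was at 21.5, 20.2 and 23.4 CPM with DMSO and 15.4, 22.5 and 14.2 CPM with azoramide in control islets, and 26.9 and 24.2 CPM with DMSO and 13.3, 16.2 and 16.9 CPM with azoramide in knockout-labelled islets. In control islets azoramide library 2 lay within the DMSO range and the change did not pass the test (-0.32 ± 0.15, adjusted p = 0.101), though it did without that library (-0.55, adjusted p = 0.0027), while in knockout-labelled islets it passed (-0.73 ± 0.16, adjusted p = 0.00217). The length/GC offset ended that call (-0.19, adjusted p = 0.351). The difference between those effects, -0.41 ± 0.22, adjusted p = 0.999, did not pass, and its unadjusted p of 0.0839 was the smallest of any member's interaction.

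Col6a6 was the collagen VI chain that islets made at a high level. Collagen VI forms beaded microfilaments at the border of basement membrane and stroma, usually from Col6a1, Col6a2 and Col6a3, with Col6a4, Col6a5 and Col6a6 as alternatives to Col6a3. Col6a6 was at 66.6, 66.3 and 90.3 CPM with DMSO and 33.2, 30.6 and 29.2 CPM with azoramide in control islets, and 73.1 and 65.7 CPM with DMSO and 25.3, 27.2 and 34 CPM with azoramide in knockout-labelled islets. All azoramide libraries lay under all DMSO libraries by a wide gap. Its log2 fold change was -1.26 ± 0.13 (SE) in control islets (edgeR adjusted p = 1.62e-05) and -1.27 ± 0.15 in knockout-labelled islets (adjusted p = 3.08e-05), nearly the same value in both genotypes. Among the alternatives tried, the call of Col6a6 was kept in all 23 in each genotype.

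The classical chains were scarce. Col6a3 was at 2.23, 2.38 and 2.38 CPM with DMSO and 0.646, 1.38 and 0.611 CPM with azoramide in control islets, and 2.41 and 1.92 CPM with DMSO and 1.45, 1.33 and 1.14 CPM with azoramide in knockout-labelled islets. It was called lower in control islets (-1.40 ± 0.34, adjusted p = 0.00338) and not in knockout-labelled islets (-0.72 ± 0.36, adjusted p = 0.121). Col6a1 was at 1.78, 1.14 and 1.5 CPM with DMSO and 0.587, 0.576 and 0.834 CPM with azoramide in control islets, and 2 and 1.05 CPM with DMSO and 2.25, 0.945 and 1.08 CPM with azoramide in knockout-labelled islets. Only control islets gave a call (-1.13 ± 0.44, adjusted p = 0.0489), which 10 of 22 alternatives ended, including DESeq2's Wald test (adjusted p = 0.054). Col6a2, Col6a4 and Col6a5, at 2 to 31 reads per library, passed no test. Neither interaction passed (0.68 ± 0.50, adjusted p = 0.999 for Col6a3 and 1.04 ± 0.63, adjusted p = 0.999 for Col6a1).

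**Figure D3:**
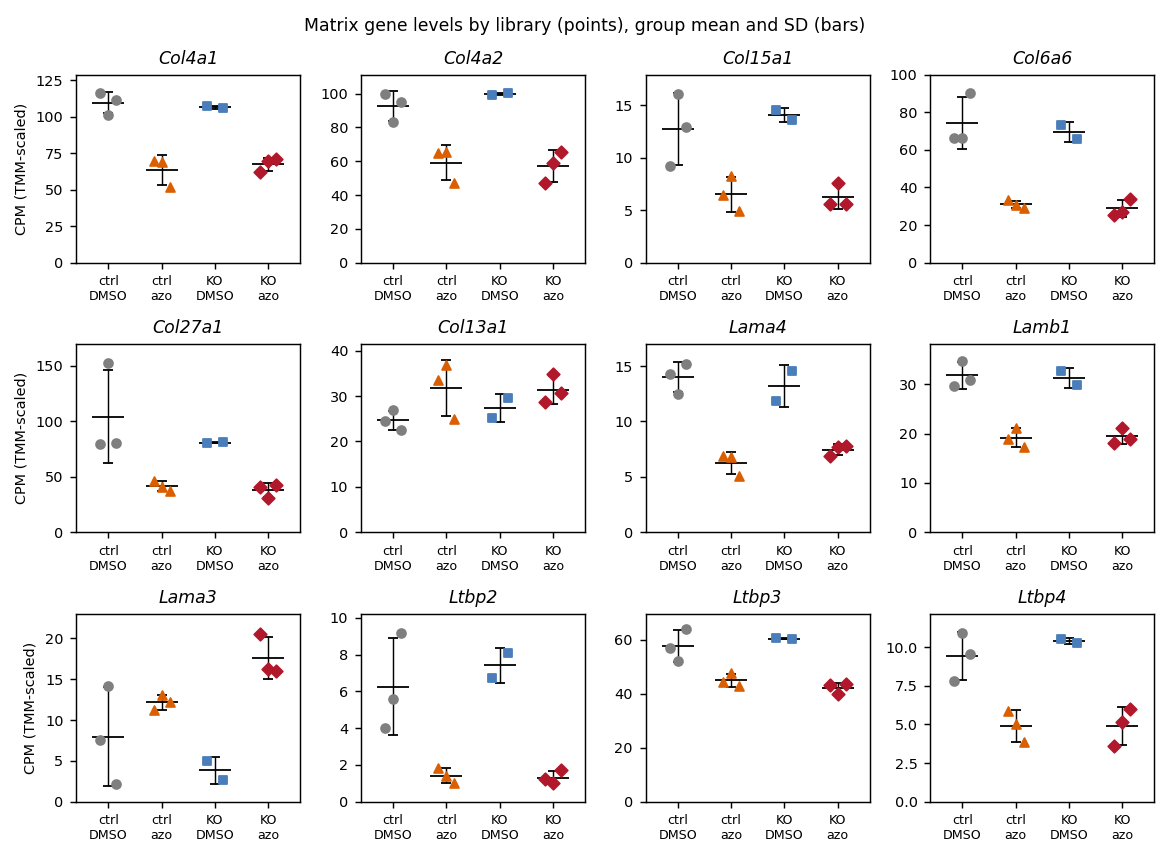
CPM by library (points) for 12 members in the 4 groups, with the group mean as a line and the SD as a bar. For Col4a1, Col4a2, Col15a1, Col6a6, Col27a1, Lama4, Lamb1, Ltbp2, Ltbp3 and Ltbp4 every azoramide point lies below every DMSO point, while Lama3 and Col13a1 overlap.

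Fibrillar collagens form the cross-banded fibrils of connective tissue and were mostly at a few CPM. Col27a1, a short-helix fibrillar collagen of cartilage and other tissues, was the exception. Col27a1 was at 79, 152 and 80.4 CPM with DMSO and 46, 40.7 and 37.1 CPM with azoramide in control islets, and 80.1 and 81.2 CPM with DMSO and 40.9, 31 and 42.8 CPM with azoramide in knockout-labelled islets. Control DMSO library 2 held the highest value, and the azoramide libraries lay below all DMSO libraries. The log2 fold change was -1.33 ± 0.28 (SE) in control islets (edgeR adjusted p = 0.00649) and -1.08 ± 0.30 in knockout-labelled islets (adjusted p = 0.0242). Without control DMSO library 2 and knockout-labelled azoramide library 3 it was called lower in both genotypes, but the length/GC offset ended both calls (-0.80 and -0.48). Leaving out any 1 of knockout-labelled DMSO 1, DMSO 2, azoramide 1 or azoramide 2 ended the call in that genotype, with adjusted p-values of 0.0887, 0.1, 0.0534 and 0.0743.

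Type I, III and V chains, the main interstitial fibrils, stood at low counts. Col1a1 was at 1.06, 1.04 and 1.72 CPM with DMSO and 0.646, 0.404 and 0.333 CPM with azoramide in control islets, and 2.87 and 1.25 CPM with DMSO and 1.4, 0.723 and 0.512 CPM with azoramide in knockout-labelled islets, with 6 to 56 reads per library. Col1a2 was at 2.17, 1.49 and 2.22 CPM with DMSO and 1.12, 1.9 and 1.11 CPM with azoramide in control islets, and 2.21 and 2.01 CPM with DMSO and 2.09, 1.89 and 1.31 CPM with azoramide in knockout-labelled islets. Col3a1 was at 1.45, 2.28 and 1.72 CPM with DMSO and 1.23, 1.56 and 0.834 CPM with azoramide in control islets, and 3.39 and 1.39 CPM with DMSO and 1.88, 0.89 and 1.02 CPM with azoramide in knockout-labelled islets. Labelled knockout DMSO library 1 held the highest Col1a1 and Col3a1 values. Of these 3 genes Col1a1 alone was called, in control islets (-1.45 ± 0.50, adjusted p = 0.0291). That call ended on leaving out control DMSO library 3 (adjusted p = 0.113), control azoramide library 2 (0.0858) or library 3 (0.107), and with the length/GC offset (-1.06, adjusted p = 0.151). In knockout-labelled islets Col1a1 had -1.22 ± 0.49, adjusted p = 0.0567, Col1a2 had -0.25 ± 0.35, adjusted p = 0.598 and Col3a1 had -0.91 ± 0.43, adjusted p = 0.107.

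Col5a2, which helps to set fibril diameter, was at 4.06, 3.52 and 5.16 CPM with DMSO and 2.47, 3.69 and 2.06 CPM with azoramide in control islets, and 7.18 and 6.52 CPM with DMSO and 3.75, 3.95 and 2.11 CPM with azoramide in knockout-labelled islets. It passed in knockout-labelled islets (-1.06 ± 0.28, adjusted p = 0.00552) and not in control islets (-0.63 ± 0.27, adjusted p = 0.0712), and the difference did not pass (-0.43 ± 0.39, adjusted p = 0.999). Col11a2, a partner of type II fibrils, was lower in knockout-labelled islets (-0.94 ± 0.31, adjusted p = 0.0268) and not called in control islets (-0.60 ± 0.29, adjusted p = 0.113). Its knockout-labelled azoramide library 3, at 5.75 CPM, lay above the others of that group, at 2.63 and 2.67 CPM. The Col11a2 call ended on leaving out knockout-labelled DMSO library 1 or 2 or azoramide library 1 or 2 (adjusted p from 0.0821 to 0.139), and without azoramide library 3 of that genotype Col11a2 was called in control islets (adjusted p = 0.034). With the length/GC offset Col11a2 was not called in knockout-labelled islets (-0.35, adjusted p = 0.434). Col5a2 was called in control islets without control DMSO library 2 (adjusted p = 0.0394), control azoramide library 2 (0.0246) or knockout-labelled azoramide library 3 (0.0399). Col2a1, Col5a1 and Col5a3 passed no test, and all 9 tested fibrillar genes had a negative log2 fold change in both genotypes.

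Fibril-associated collagens decorate the surface of other fibrils. Col14a1 was at 3.9, 7.08 and 2.72 CPM with DMSO and 3.23, 1.15 and 1.61 CPM with azoramide in control islets, and 3.75 and 5.18 CPM with DMSO and 1.29, 1.28 and 2.45 CPM with azoramide in knockout-labelled islets. Its control groups overlapped, with control DMSO library 2 the highest, and the log2 fold change was -1.20 ± 0.42 (SE) in control islets (edgeR adjusted p = 0.0391) and -1.42 ± 0.47 in knockout-labelled islets (adjusted p = 0.0276). The call was kept in 8 of 23 alternatives in control islets and in 15 of 23 in knockout-labelled islets. Without control DMSO library 2 it was -0.73 (adjusted p = 0.149), and the length/GC offset ended both calls. Col20a1 was called lower in control islets (-0.69 ± 0.22, adjusted p = 0.0164) and not in knockout-labelled islets (-0.44 ± 0.23, adjusted p = 0.147), and 79 bp of its exons overlap another annotated gene on the same strand. Without control DMSO library 3 or control azoramide library 2 Col20a1 was not called (adjusted p = 0.0571 and 0.0812), nor with the length/GC offset (-0.43, adjusted p = 0.178). Col9a2, Col12a1, Col9a3 and Col16a1 passed no test. Col16a1 spread from 15.3 to 57.4 CPM within the control DMSO group alone, control DMSO library 2 again being the highest.

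Transmembrane Col13a1, an adhesion-site collagen, went the other way. It was at 24.6, 26.9 and 22.6 CPM with DMSO and 33.7, 36.9 and 25 CPM with azoramide in control islets, and 25.1 and 29.6 CPM with DMSO and 28.8, 34.9 and 30.7 CPM with azoramide in knockout-labelled islets, with overlapping groups in both genotypes. It was called higher in control islets (0.37 ± 0.13, adjusted p = 0.0343) and not in knockout-labelled islets (0.20 ± 0.14, adjusted p = 0.296). Plain library totals in place of TMM ended the call (0.20, adjusted p = 0.244), as did leaving out control DMSO library 1 or 3 or control azoramide library 1 or 2 (adjusted p from 0.0868 to 0.167). Under the length/GC offset it was called higher in both genotypes. The neuronal Col25a1, the anchoring Col7a1, the short-chain Col8a1 and Col8a2, and Col26a1 and Col28a1 passed no test.

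Laminin chains went both ways. Lama4 and Lama5 encode the α chains of the laminins of vessel walls, which pair with the chains of Lamb1 and Lamc1, and all 4 were lower in both genotypes. Lama4 was at 14.3, 12.5 and 15.2 CPM with DMSO and 6.87, 6.8 and 5.11 CPM with azoramide in control islets, and 11.9 and 14.6 CPM with DMSO and 6.87, 7.73 and 7.74 CPM with azoramide in knockout-labelled islets. Lama5 was at 14.2, 21.1 and 11.8 CPM with DMSO and 8.28, 8.13 and 7.84 CPM with azoramide in control islets, and 11.9 and 11.7 CPM with DMSO and 6.49, 8.9 and 6.78 CPM with azoramide in knockout-labelled islets. No azoramide library of either gene reached the lowest DMSO library. Log2 fold changes of Lama4 were -1.16 ± 0.15 (SE) in control islets (edgeR adjusted p = 1.03e-05) and -0.83 ± 0.16 in knockout-labelled islets (adjusted p = 0.000478), and those of Lama5 -0.96 ± 0.18 (SE) in control islets (edgeR adjusted p = 0.00054) and -0.67 ± 0.20 in knockout-labelled islets (adjusted p = 0.0149). Lama5 lost its call in knockout-labelled islets without knockout-labelled DMSO library 1 (adjusted p = 0.077), DMSO library 2 (0.072) or azoramide library 1 (0.0617), and with the length/GC offset in both genotypes.

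Lamb1 was at 29.7, 34.8 and 31 CPM with DMSO and 18.9, 21.2 and 17.3 CPM with azoramide in control islets, and 32.8 and 29.8 CPM with DMSO and 18.2, 21.2 and 18.9 CPM with azoramide in knockout-labelled islets. Lamc1 was at 59.8, 78.6 and 67.2 CPM with DMSO and 51.7, 56.3 and 45.4 CPM with azoramide in control islets, and 64.3 and 64 CPM with DMSO and 50.2, 51.1 and 50.3 CPM with azoramide in knockout-labelled islets. Both sets of azoramide libraries lay below the DMSO libraries, by a wider gap for Lamb1. The log2 fold change of Lamb1 was -0.73 ± 0.10 (SE) in control islets (edgeR adjusted p = 1.94e-05) and -0.69 ± 0.11 in knockout-labelled islets (adjusted p = 8.99e-05) and was kept with the length/GC offset. That of Lamc1 was -0.42 ± 0.09 (SE) in control islets (edgeR adjusted p = 0.00142) and -0.35 ± 0.10 in knockout-labelled islets (adjusted p = 0.0116), and with the offset it was -0.13 and -0.02 and not called. Without knockout-labelled DMSO library 1 or 2 Lamc1 was not called in that genotype (adjusted p = 0.0659 and 0.0658). Lamb2, an alternative β chain, had -0.52 ± 0.20, adjusted p = 0.0505 in control islets and -0.51 ± 0.22, adjusted p = 0.0796 in knockout-labelled islets, just outside the threshold in control islets.

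Lama3 and Lamb3, which encode chains of an epithelial laminin, gave no lower call. Lama3 was at 7.57, 14.2 and 2.11 CPM with DMSO and 11.2, 13.1 and 12.2 CPM with azoramide in control islets, and 5.03 and 2.64 CPM with DMSO and 20.6, 16.2 and 16 CPM with azoramide in knockout-labelled islets. The knockout-labelled azoramide libraries lay above the DMSO libraries of that genotype. It was called higher in knockout-labelled islets (2.21 ± 0.66, adjusted p = 0.0327) and not in control islets (0.60 ± 0.54, adjusted p = 0.438), where DMSO libraries spread from 2.11 to 14.2 CPM. That call was kept in 14 of 23 alternatives and ended on leaving out any knockout-labelled library (adjusted p from 0.0526 to 0.192), control DMSO library 1 or control azoramide library 1 or 3. The interaction did not pass (1.61 ± 0.85, adjusted p = 0.999). Lamb3, at 0 to 17 reads, and Lama2 passed no test.

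Latent TGF-beta binding proteins held the largest change of any member. Ltbp2, which binds fibrillin and does not bind latent TGF-beta, was at 4.01, 5.6 and 9.15 CPM with DMSO and 1.82, 1.38 and 1 CPM with azoramide in control islets, and 6.72 and 8.1 CPM with DMSO and 1.23, 1 and 1.71 CPM with azoramide in knockout-labelled islets. Each azoramide library held less than the lowest DMSO library, 4.01 CPM. Its log2 fold change was -2.15 ± 0.31 (SE) in control islets (edgeR adjusted p = 4.52e-05) and -2.49 ± 0.33 in knockout-labelled islets (adjusted p = 2.05e-05). Ltbp2 lies on the minus strand at chr12:84783212-84876532 and kept its call in 22 of 23 alternatives in each genotype, the exception being the endothelial covariate described below. A 764 bp stretch of its exons overlaps an antisense gene with a mean of 4.82 reads, against 72.2 for Ltbp2.

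Ltbp3 and Ltbp4 do bind latent TGF-beta complexes. Ltbp3 was at 57, 52 and 63.9 CPM with DMSO and 44.2, 47.6 and 42.7 CPM with azoramide in control islets, and 60.5 and 60.2 CPM with DMSO and 43.1, 39.98 and 43.4 CPM with azoramide in knockout-labelled islets. Ltbp4 was at 7.79, 10.9 and 9.54 CPM with DMSO and 5.87, 5.01 and 3.83 CPM with azoramide in control islets, and 10.5 and 10.3 CPM with DMSO and 3.59, 5.17 and 5.98 CPM with azoramide in knockout-labelled islets. Both fell without overlap, Ltbp4 by more. The log2 fold changes were -0.36 ± 0.08 (SE) in control islets (edgeR adjusted p = 0.00137) and -0.52 ± 0.09 in knockout-labelled islets (adjusted p = 0.000142) for Ltbp3 and -0.94 ± 0.20 (SE) in control islets (edgeR adjusted p = 0.00115) and -1.08 ± 0.22 in knockout-labelled islets (adjusted p = 0.00072) for Ltbp4. With the length/GC offset neither was called, and Ltbp3 was at 0.09 in control islets and -0.01 in knockout-labelled islets. Ltbp1, the founding member, was at 1, 0.991 and 0.666 CPM with DMSO and 0.529, 0.865 and 0.445 CPM with azoramide in control islets, and 0.975 and 0.959 CPM with DMSO and 0.858, 0.945 and 0.968 CPM with azoramide in knockout-labelled islets. At 8 to 20 reads per library it passed no test (-0.53 ± 0.42, adjusted p = 0.344 in control islets and -0.07 ± 0.44, adjusted p = 0.924 in knockout-labelled islets).

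Start regions are shown for Ltbp2 and Col6a6, 2 genes lower in both genotypes with and without the offset. The 250 bases before each start come from RefSeq (GRCm38.p6), on the gene's minus strand, with GC boxes (GGGCGG or its reverse CCGCCC) and GCGTG or its reverse CACGC, the core of the aryl hydrocarbon response element, in capitals:
Ltbp2, chr12:84876492-84876741: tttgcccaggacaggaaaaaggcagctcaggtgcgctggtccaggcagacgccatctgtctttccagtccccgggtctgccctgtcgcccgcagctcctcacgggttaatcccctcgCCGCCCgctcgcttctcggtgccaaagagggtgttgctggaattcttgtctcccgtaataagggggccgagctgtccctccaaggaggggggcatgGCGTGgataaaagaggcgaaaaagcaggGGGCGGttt
Col6a6, chr9:105828086-105828335: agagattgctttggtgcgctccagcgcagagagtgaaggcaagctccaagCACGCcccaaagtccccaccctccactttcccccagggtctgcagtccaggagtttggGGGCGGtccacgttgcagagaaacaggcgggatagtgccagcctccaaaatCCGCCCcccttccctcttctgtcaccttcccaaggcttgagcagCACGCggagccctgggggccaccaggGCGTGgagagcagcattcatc
GENCODE places the starts further upstream, at chr12:84876532 for Ltbp2 and chr9:105828160 for Col6a6. By those starts the last bases of both windows, with the marked stretches near their ends, lie inside the genes. RefSeq windows were matched to 44 of the 59 members and to 10 of the 13 genes lower in both genotypes. Searched on both strands, GGGCGG was in 7 of the 10 and in 35.4% of 27025 genes with a window, and GCGTG in 6 of the 10 and 30.9%. CCAAT was in 4 of the 10 and 37.5%, TATAAA in 0 of the 10 and 14.3%, and TGANTCA, an AP-1 site, in 0 of the 10 and 7.82%. Over the 44 matched members the counts were 25 for GGGCGG, 16 for CCAAT, 12 for GCGTG, 5 for TATAAA and 1 for TGANTCA. A match of letters is not a site in use.

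Levels per kilobase of exon allow genes to be ranked. Among the members reported here the order in control islets with DMSO was Col4a1 (14.7 ± 1.01), Col4a2 (14 ± 1.31), Lamc1 (8.28 ± 1.14), Col6a6 (8.12 ± 1.5), Col27a1 (7.98 ± 3.22), Ltbp3 (6.35 ± 0.655), Col13a1 (5.36 ± 0.458), Col16a1 (4.92 ± 3.22) and Lamb1 (3.21 ± 0.268), in CPM per kb as mean ± SD (n = 3). Neighbours in that order differed by less than the larger of their SDs, except Col4a2 and Lamc1, and Ltbp3 and Col13a1. With azoramide in control islets Col4a2 (8.94 ± 1.56) and Col4a1 (8.49 ± 1.37) still led, and Col13a1 was at 6.92 ± 1.33 CPM per kb (n = 3). Col6a6 was then at 3.38 ± 0.222 and Col27a1 at 3.17 ± 0.347 CPM per kb. Col1a1, at 0.194 ± 0.059 CPM per kb with DMSO, was far below the basement membrane genes.

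**Figure D4:**
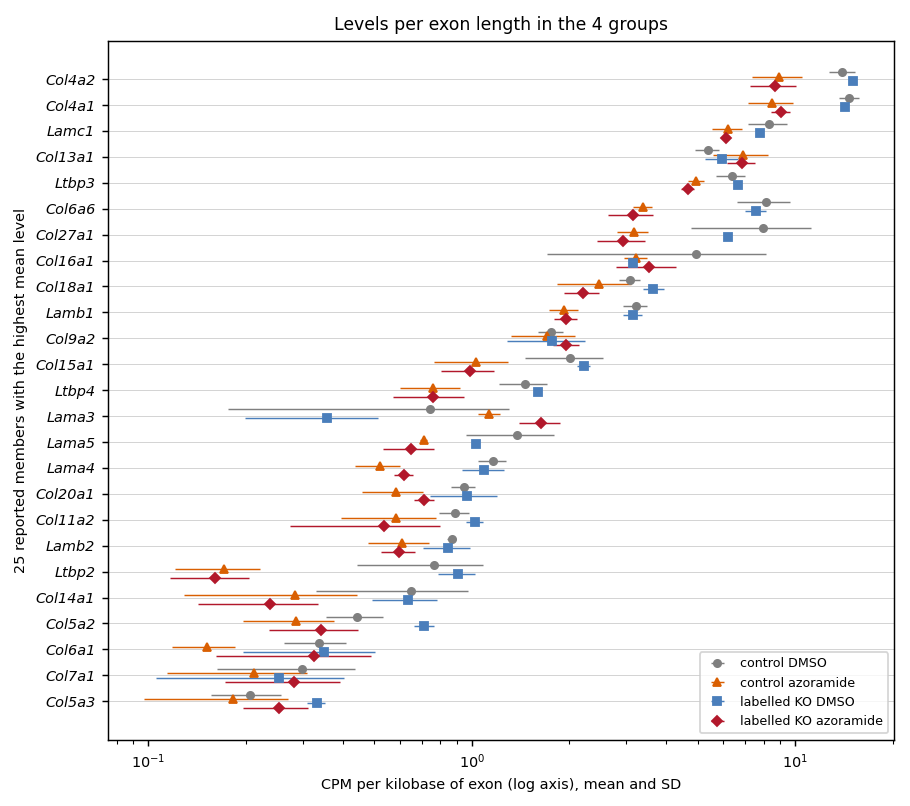
Level per kilobase of exon (log axis, mean with SD) in the 4 groups for the 25 members with the highest mean among those reported here. Col4a1 and Col4a2 lead in every group, and Col6a6 and Col27a1 move left with azoramide while Col13a1 does not.

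Genotype did not separate the members. By edgeR 0 of 47 were called between knockout-labelled islets and control islets with DMSO, and 0 with azoramide, at an adjusted p of 0.05; over all genes 0.0% were called in either direction, and 0.0% in the interaction. An unadjusted edgeR p under 0.05 was reached by 3 members with DMSO, 1 with azoramide and 0 in the interaction. Of all 15093 genes 531, 754 and 563 reached it. DESeq2 also called 0 members in each of these comparisons. With DMSO the smallest p-values belonged to Col5a2 (0.69), Col26a1 (-1.5), Lama5 (-0.42), Lamb3 (-2.0) and Col25a1 (0.49), all with an adjusted p of 0.999. With azoramide they belonged to Col6a1 (1.09, adjusted p = 0.958) and to Col1a1 (0.93), Lama4 (0.25), Col6a3 (0.57) and Col6a4 (0.77), each with an adjusted p of 0.968. For Col4a1 the 95% interval of the genotype difference with DMSO was -0.27 to 0.19 on the log2 scale and for Lamb1 -0.25 to 0.20, while for Col1a1 it was as wide as -0.31 to 1.69. The members' median interaction was 0.19, against 0.007 over all genes.

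Other basement membrane genes were lower beside collagen IV and the laminins. For this and the lists that follow, the shares of all genes are those above, 19.8% lower in each genotype and 19.3% or 20.0% higher. Of 13 tested genes of that list 7 were lower and 1 higher in control islets, and 8 lower and 0 higher in knockout-labelled islets, with medians of -0.43 and -0.57. Hspg2, which encodes perlecan, changed by -0.87 ± 0.11 (SE) in control islets (edgeR adjusted p = 1.32e-05) and -0.76 ± 0.12 in knockout-labelled islets (adjusted p = 0.000102). Nid1 and Nid2, the nidogens that link laminin to collagen IV, changed by -0.53 and -0.51 and by -0.95 and -0.80, control islets first, as in the pairs that follow. Fras1 changed by -0.98 and -1.28, Npnt, the nephronectin gene, by -0.58 and -0.74, and Sparc, a collagen-binding glycoprotein, by -0.42 and -0.33. Each of these 12 changes passed in edgeR. Under the length/GC offset Hspg2 was called in neither genotype (-0.28 and -0.11), and Nid1 and Sparc were not called in knockout-labelled islets (-0.31 and -0.24). Sparc was also not called there without DMSO library 1 or 2 of that genotype (adjusted p = 0.0515 and 0.0672).

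Enzymes and factors for collagen export changed in both directions. Of 21 tested, 7 were lower and 2 higher in control islets, and 6 lower and 3 higher in knockout-labelled islets. Ppib, the cyclophilin B of the prolyl 3-hydroxylase complex, rose by 0.68 ± 0.07 (SE) in control islets (edgeR adjusted p = 8.87e-07) and 0.76 ± 0.08 in knockout-labelled islets (adjusted p = 1.44e-06). Mia3, which encodes the TANGO1 export receptor, changed by -0.33 and -0.40, and Tmem131, another collagen secretion factor, by -0.47 and -0.66. Creb3l1 and Creb3l2, transcription factors released from the endoplasmic reticulum that act on collagen secretion genes, changed by -0.78 and -0.98 and -0.54 and -0.57. All of these passed the test, though Tmem131 did not in control islets with the length/GC offset (-0.23, adjusted p = 0.0522). Serpinh1, the collagen chaperone HSP47, did not (0.23 and 0.09). Among 10 tested processing and crosslinking genes 3 and 4 were lower and 0 higher. Bmp1, the procollagen C-proteinase, changed by -0.54 and -0.54, the crosslinking enzyme Loxl2 by -0.87 and -1.0 and peroxidasin, Pxdn, by -0.78 and -0.85, all past the threshold. Lox was lower in knockout-labelled islets only as a call (-2.02 ± 0.68, adjusted p = 0.0255), which ended on leaving out knockout-labelled DMSO library 1 or 2 or azoramide library 1 or 3 (adjusted p from 0.0571 to 0.121), and Loxl3 passed in neither. Given the length/GC offset Bmp1 was called in neither genotype (-0.14 and -0.09).

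Microfibrils carry the Ltbp proteins. Of 12 tested elastic fibre genes 3 were lower and 1 higher in control islets, and 4 lower and 1 higher in knockout-labelled islets. Fbn1, which encodes fibrillin-1, changed by -1.21 ± 0.25 (SE) in control islets (edgeR adjusted p = 0.000916) and -1.09 ± 0.26 in knockout-labelled islets (adjusted p = 0.00283). Emilin1 changed by -0.41 and -0.41, Thsd4 by -0.48 and -0.66, and Efemp2, the fibulin-4 gene, rose by 0.31 and 0.42. All passed, but Emilin1 and Thsd4 did not with the length/GC offset. Without knockout-labelled DMSO library 1 Fbn1 was not called in that genotype (-0.78, adjusted p = 0.0808).

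TGF-beta pathway genes were called lower more often than higher. Of 21 tested ligands, activators, receptors and SMADs 10 were lower and 0 higher in control islets, and 8 lower and 1 higher in knockout-labelled islets, with medians of -0.23 and -0.16. Among ligands Tgfb1 changed by -0.55 ± 0.13 (SE) in control islets (edgeR adjusted p = 0.00301) and -0.66 ± 0.14 in knockout-labelled islets (adjusted p = 0.00145), while Tgfb2 (-0.58 and 0.27) and Tgfb3 (-0.13 and -0.44) passed in neither. Furin, which cleaves the TGF-beta propeptide, changed by -0.48 and -0.59 and the integrin gene Itgb5 by -0.44 and -0.57. Of the receptors Tgfbr2 changed by -0.53 and -0.53 and the co-receptor Tgfbr3 by -0.76 and -1.11, all past the threshold. Tgfbr1 passed in control islets only (-0.29 and -0.16). Smad4 changed by -0.23 and -0.36 and passed in both. With the length/GC offset Furin (-0.09 and -0.16) and Tgfbr2 (-0.33 and -0.32) were not called, and Tgfbr2 also lost its call in control islets without DMSO library 2 or azoramide library 3 (adjusted p = 0.052 and 0.0533), and in knockout-labelled islets without DMSO library 1 or 2 or azoramide library 1 (0.152, 0.0736 and 0.0773).

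Target genes of TGF-beta were called at about the shares of all genes. Of 16 tested, 3 (18.8%) were lower and 4 (25%) higher in each genotype, with medians of 0.04 and 0.12. The 2 members on that list, Ltbp1 and Col1a1, were left out of these counts. Id1, Id2 and Id3, inhibitors of helix-loop-helix factors that respond to BMP and TGF-beta signals, rose by 0.77 and 1.08, 1.18 and 1.19 and 1.0 and 0.92. Ski, a repressor of SMADs, changed by -0.62 and -0.76, also past the threshold, and Skil rose in knockout-labelled islets (0.29 ± 0.07, adjusted p = 0.00185). Fn1, the fibronectin gene, passed in neither genotype (-0.73 and -1.06), but was called lower in knockout-labelled islets without azoramide library 3 of that genotype (-1.58, adjusted p = 0.00828) or control DMSO library 2 (adjusted p = 0.0498).

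Endothelial markers moved with the matrix genes. Summed over 14 markers they lay between 421.5 and 441.3 CPM with DMSO and between 311.2 and 389.1 CPM with azoramide, without overlap. Of the 14, 6 were lower and 1 higher in control islets and 6 lower and 0 higher in knockout-labelled islets. Cdh5, encoding VE-cadherin, changed by -0.36 and -0.46 and Plvap by -0.44 and -0.46, while Pecam1 (-0.13 and -0.13) and Kdr (-0.20 and -0.26) passed in neither genotype. Fibroblast and stellate cell markers summed to 122.7 to 141.1 CPM with DMSO and 106.3 to 125.8 CPM with azoramide, and pericyte markers to 68.35 to 83.16 and 61.0 to 71.1 CPM, both overlapping. Gsn made up most of the fibroblast sum (110.2 of 131.1 CPM in control islets with DMSO), and that list's median log2 fold change was 0.42 and 0.13, with 1 and 2 of 12 tested markers lower and 0 higher. Of 9 tested pericyte markers 4 were lower and 1 higher in control islets, and 2 lower and 0 higher in knockout-labelled islets, with medians of -0.72 and -0.01. Rgs5, the marker called higher, averaged 28.94 CPM with DMSO and 35.55 CPM with azoramide in control islets, while Mcam changed by -0.72 and -0.58. Pdgfrb averaged 10.95 CPM in control islets with DMSO and 5.99 CPM with azoramide, and Dcn 3.4 and 4.78 CPM. Macrophage markers did not overlap either, at 50.92 to 64.23 CPM with DMSO and 69.54 to 133.2 CPM with azoramide. Of 13 tested, 2 were higher in control islets and 4 in knockout-labelled islets, and 0 were lower. Cd68 averaged 16.23 CPM with DMSO and 33.49 CPM with azoramide in control islets. Adgre1, Csf1r, Itgam and Mrc1 averaged less with azoramide there. The α-cell sum lay at 14730 to 16820 CPM with DMSO and 23960 to 28090 CPM with azoramide, with 5 and 6 of 8 markers higher and 0 lower. Duct markers summed to 1576 to 1962 and 2151 to 2597 CPM, with 6 and 5 of 11 higher and 1 lower in each genotype. Acinar markers spread from 571.4 to 5733 CPM without following the treatment. No marker in these lists was at 0 in every library.

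The members themselves summed to 756.5 to 887.0 CPM with DMSO and 466.1 to 570.6 CPM with azoramide. Collagen IV genes summed to 187.1 to 218.6 and 101.4 to 138.4 CPM, and Ltbp genes to 69.55 to 83.21 and 47.1 to 54.87 CPM. With the mean log2 level of the endothelial markers as a covariate, 3 members were lower (Col4a1, Col6a6 and Lamb1) and 1 higher in control islets, and Col6a6 alone was lower in knockout-labelled islets. That covariate follows the treatment, and with it calls over all genes also dropped, to 2.23% lower and 5.74% higher in control islets and 3.18% lower and 5.92% higher in knockout-labelled islets. With the fibroblast and pericyte markers as covariate 18 and 15 members were lower, against 21.4% and 21.6% of all genes lower (20.9% and 22.3% higher). A covariate that follows the treatment cannot be separated from it, and the part of cell composition in the matrix changes was not tested.

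**Figure D5:**
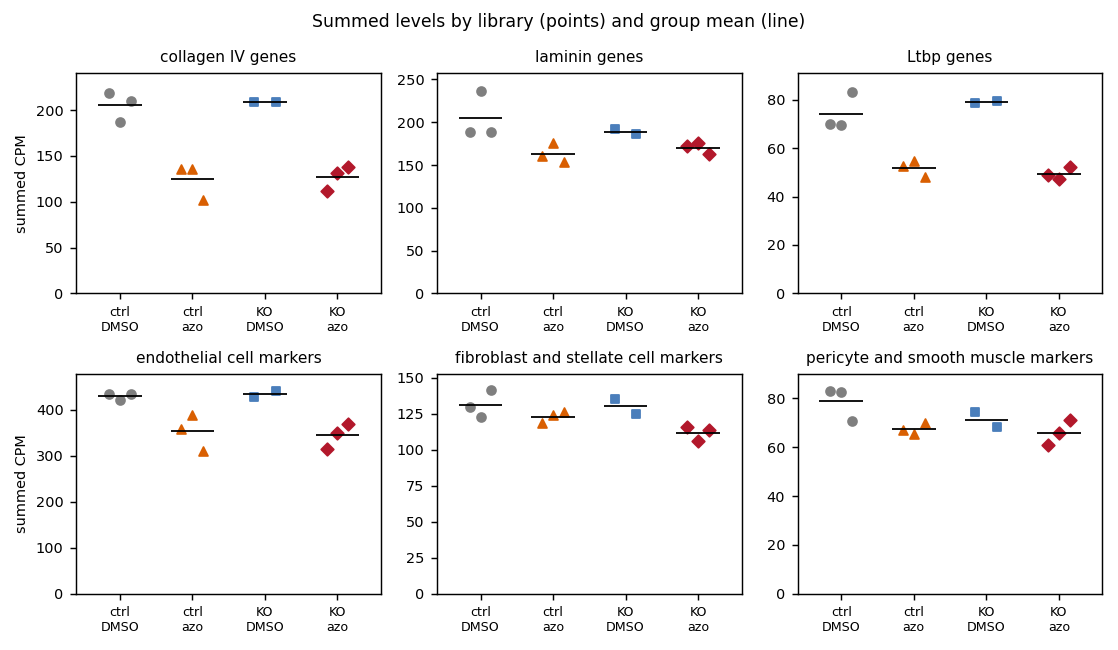
Summed CPM by library (points, group mean as a line) for collagen IV, laminin and Ltbp genes and for markers of endothelial cells, fibroblasts and stellate cells, and pericytes. Collagen IV, laminin, Ltbp and endothelial sums are lower in each azoramide library than in each DMSO library, and the other marker sums overlap.

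Fewer genes of any kind were called on leaving out knockout-labelled DMSO library 2 or library 1, each of which leaves 1 in that group. The counts given here are those without library 1. In that genotype 11 members were then called in place of 17, and over all genes 13.7% were lower and 13.9% higher in place of 19.8% and 20.0%. Plain library totals in place of TMM moved the median of all genes to -0.19 in control islets and -0.16 in knockout-labelled islets. Of the members 21 were then lower and 0 higher in control islets, and 20 lower and 1 higher in knockout-labelled islets, and all 13 genes lower in both were again called. Over all genes that scaling gave 32.8% lower and 10.8% higher in control islets, and 30.1% and 12.4% in knockout-labelled islets, while TMM scaling gave 19.8% and 19.3%, and 19.8% and 20.0%.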

How the data were processed

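RNA of 11 islet libraries was sequenced on the DNBSEQ-T7 platform, per the labels. The deposited table held raw counts, not normalized, as whole numbers for each gene and library. STAR 2.7.2a, the build mm10 and DESeq2, with no role or order, are named in the submitters' processing notes. How reads were counted, with which annotation and strand setting, is not given in the sources used here. Reads of overlapping genes can therefore not be told apart.

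Groups came from the sample titles. Counts were fitted in R 4.3.3 with edgeR 4.0.16 (robust quasi-likelihood test, TMM scaling, filter for low counts by group) in 1 fit of the 4 groups, which left 15093 genes. P-values were Benjamini-Hochberg adjusted over all of them, with a threshold of 0.05, and the fit was tested on simulated data. CPM are counts divided by TMM-scaled library sizes, fold changes are log2 values, and ± is the SE for them and the SD for levels. At 16832800 to 19501813 counts per library, counting error is large only for genes with few reads. Exons, lengths and GC content came from GENCODE M21 (GRCm38) and start regions from RefSeq (GRCm38.p6), with 1-based coordinates.

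Members and lists were chosen with earlier results of these data known. Named with values were all called members, the 5 with the highest level per kilobase in any group, a fixed set of well-known members, the 5 of smallest p in each genotype comparison, and up to 4 genes of smallest p per pathway list and azoramide comparison besides fixed ones. Of the tested members, 1 is not reported here by name and is kept in the counts, medians and sums. Kdr, Pecam1, Cdh5, Plvap, Pdgfrb and Dcn were picked as markers after their values were seen. Alternatives were DESeq2 1.42.0 size factors and its Wald test, plain totals, other filters, single libraries or 2 left out, only the groups compared, a replicate block, an offset for length and GC content, and marker covariates.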

Additional observations from a re-analysis of the deposited data

How the results depend on the processing

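Called members numbered 18 in control islets and 17 in knockout-labelled islets. With the length/GC offset they numbered 9 and 10, with the replicate block and that offset 9 and 8, and with the endothelial covariate 4 and 1. Leaving out each library in turn gave 14 to 21 in control islets and 11 to 18 in knockout-labelled islets, the 11 being without knockout-labelled DMSO library 1. The replicate block alone gave 17 and 15. Deviations from group means of same-numbered DMSO and azoramide libraries correlated weakly within a genotype (-0.144 to 0.107), and up to 0.166 between genotypes. The numbers were therefore not taken as pairs, which does not exclude that such libraries share a pool of islets. The other alternatives gave 16 to 21 and 17 to 21. Genotype comparisons and the interaction gave 0 under every alternative. Over all 15093 genes, block with offset gave 1409 lower and 2082 higher in control islets, and 1770 and 2175 in knockout-labelled islets. That was a larger share than among the members. The block alone gave 2956 and 2883, and 3020 and 3027. For the offset and the endothelial covariate, shares of all genes are given above. Leaving out single libraries gave 2413 to 3097 genes lower and 2398 to 3006 higher in control islets, of 15007 to 15598 tested. Among called values, the sign turned for Ltbp3 in control islets with the offset (0.0867) and with block and offset (0.08904). In knockout-labelled islets it turned for Emilin1 with the offset (0.04013) and with block and offset (0.06498), and for Lama5 (0.01963) and Lamc1 (0.01331) with block and offset. The cause was not tested. Sign changes of values never called were not counted. Over all genes, calls were rarer under 100 reads on average (4.92% lower in control islets, against 25.9% of the others), though Ltbp2 was called at a mean of 72.2 reads.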

Other observations

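Matrix proteases and their inhibitors had more lower than higher calls with azoramide in control islets, and few calls in knockout-labelled islets. Of 20 tested genes 7 (35.0%) were lower and 0 higher in control islets, and 3 (15%) lower and 1 higher in knockout-labelled islets, with 19.8% of all genes lower in each. Mmp14, a membrane-bound collagenase, had log2 fold changes of -0.81 ± 0.17 (SE) in control islets (edgeR adjusted p = 0.00134) and -0.43 ± 0.19 in knockout-labelled islets (adjusted p = 0.0834). Adamts1, which cleaves proteoglycans, changed by -0.54 and -0.36 and Mmp24 by -0.32 and -0.42, control islets first, past the edgeR threshold in both. Adamts4 (-0.94 and -0.46) and Reck (-0.70 and -0.44), an inhibitor of membrane proteases, passed in control islets only. Timp2, a protease inhibitor, passed in knockout-labelled islets only (-0.17 and -0.48), as did Mmp12, a macrophage elastase, which was higher (0.64 and 2.14). The difference between genotypes did not pass for any of these genes. With the length/GC offset Mmp24 was called in neither genotype, and Adamts1 and Timp2 were not called in knockout-labelled islets. Leaving out single libraries ended the calls of Mmp24 in control islets (DMSO 1 or 3 or azoramide 3) and in knockout-labelled islets (DMSO 1). In knockout-labelled islets it also ended those of Timp2 and Mmp12 (knockout-labelled DMSO 2) and of Adamts1 (control DMSO 1 or azoramide 1, knockout-labelled DMSO 1 or 2 or azoramide 1 or 3), with edgeR adjusted p-values from 0.0611 to 0.278. Mmp14 was called lower in knockout-labelled islets without azoramide library 1 of that genotype (-0.60, adjusted p = 0.0278).

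Receptors for collagen and laminin had calls in both directions. Of 17 tested, 4 were lower and 3 higher in control islets, and 5 lower and 2 higher in knockout-labelled islets, or 23.5% and 17.6% (control) and 29.4% and 11.8%, against 19.8% lower and 19.3% or 20.0% higher over all genes. Itgb1, the β1 integrin chain shared by most matrix receptors, rose by 0.50 ± 0.07 (SE) in control islets (edgeR adjusted p = 2.07e-05) and 0.65 ± 0.08 in knockout-labelled islets (adjusted p = 5.28e-06). The laminin-integrin partner Cd151 rose by 0.74 and 0.71. Dag1, which encodes dystroglycan, changed by -0.56 and -0.68, the collagen receptor Ddr1 by -0.48 and -0.77 and Itga3 by -0.59 and -0.57, past the threshold in both genotypes. Under the length/GC offset Ddr1 was not called in control islets (-0.15) and Itga3 was not called in knockout-labelled islets (-0.18).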
